A study of Drosophila melanogaster with 56 samples.

Results

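The maternal genes of the dorsal-ventral Toll pathway are the 9 genes gd, snk, ea, spz, Tl, tub, pll, cact and dl, taken by name from the 17558 gene IDs counted in every sample. The rule takes them for their place in the pathway and uses no measured value, but they were picked with earlier results of these data known. RNA was measured in whole wild-type Oregon R embryos of *Drosophila melanogaster*, collected in laying windows of 30 min and either processed at once (0 h) or aged at 25 °C, hourly up to 6 h and then at every even hour from 8 to 20 h. Each of the 14 time points had 4 biological replicates, which gave 56 samples of untreated embryos of a single genotype that differed in time after egg-laying. The libraries were made from poly(A) RNA, so the counts cover polyadenylated transcripts.

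The Toll pathway gives the fly embryo its ventral side. A chain of serine proteases that the mother supplies is activated in the fluid around the embryo, the last protease cuts the ligand Spätzle, and Spätzle activates the receptor Toll on the ventral surface. Inside the embryo, Toll acts through the adaptor Tube and the kinase Pelle to remove the inhibitor Cactus, which frees the NF-kB factor Dorsal to enter ventral nuclei and set the fates of mesoderm, neurogenic ectoderm and dorsal ectoderm, and the same receptor module is reused in the immune system of the larva and adult.

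In the BDGP6 genome (Ensembl release 115), Tl (FBgn0262473) lies on chromosome 3R from 26799041 to 26842403 on the plus strand. Also on 3R are spz (FBgn0003495, 27064990 to 27070070, minus strand), pll (FBgn0010441, 27251131 to 27253182, minus), ea (FBgn0000533, 15328729 to 15330408, plus), snk (FBgn0003450, 13040165 to 13042770, minus) and tub (FBgn0003882, 4387742 to 4389813, plus). The genes cact (FBgn0000250, 16313036 to 16326207, minus) and dl (FBgn0260632, 17436830 to 17450364, minus) are on 2L, and gd (FBgn0000808, 11985154 to 11987764, minus) is on X. The union of a member's exons spanned 1435 bases in snk at the least and 6432 bases in dl at the most. Exons of 4 members overlapped an exon of a gene on the opposite strand, by 62 bases between cact and fzy, 31 between pll and TfIIA-L, 20 between snk and CG11668 and 5 between spz and CG43935. The strand setting of the authors' counting was not given in the sources used here.

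The depth was 13422473 to 22536043 gene counts per sample, at which 3 counts equal 0.133 to 0.224 CPM. Levels are given as RPKM, the reads per kilobase of exon after scaling to the total count on genes, so that levels of different genes can be set side by side, and errors are SDs over the 4 samples of a time point. Marker sums changed with the labelled ages, with exceptions that include the late muscle sum at 0, 2, 6 and 18 h. Among these sums, 4 maternal determinants reached 85.8 RPKM at the median of 3 h, against 641 RPKM at 1 h, 5 blastoderm genes peaked at 328 RPKM at 3 h, and 4 late muscle genes reached 9292 RPKM at 20 h. Of the maternal determinants, stau changed little, with means of 71.0 RPKM at 1 h and 59.3 RPKM at 3 h. At these hours osk had 353 and 1.30 RPKM, gcl 141 and 20.3 RPKM and bcd 76.8 and 5.67 RPKM. Some libraries stood apart. The late muscle sum was between 67.9 and 136 RPKM at 1 h, against 494 to 560 RPKM in replicates 1 to 3 and 47.2 RPKM in replicate 4 at 0 h, so 1 h, and not 0 h, served as the baseline of the maternal load. The late muscle sum was between 183 and 360 RPKM at 2 h, above every sample of 1 h and of 3 h (81.7 to 110 RPKM). Its median was 270 RPKM at 6 h and 205 RPKM at 8 h. At 18 h it was between 1542 and 2614 RPKM in replicates 1 to 3, below every 16 h sample (3572 to 4810 RPKM). At 3 h replicates 1 and 2 differed from replicates 3 and 4 in maternal and in early zygotic transcripts, and counts of members called that rest on that time point are also given without either pair.

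Changes were tested with edgeR's quasi-likelihood test on the counts of 11065 genes in a single fit of all 56 samples, and a change was called where the Benjamini-Hochberg adjusted p was below 0.05 and the log2 fold change was 1 or more in size. All 9 members passed the filter on low counts. Fold changes include the TMM scaling factors of edgeR, which RPKM leaves out. These factors were 0.9824 to 1.1161 at 1 h and 0.7745 to 0.7955 at 2 h. A fold change can therefore differ from the ratio of the mean RPKM. Comparisons that use the same time point share its samples. In whole embryos, fewer cells of a type and less RNA per cell cannot be told apart.

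The mRNA of nearly every member was lower at 6 h than at 1 h. At 6 h against 1 h, 8 of the 9 members fell and Tl did not pass the test, with a median log2 fold change of -3.93 over the members beside 0.48 over all genes tested. In the same comparison 19.1% of all genes fell and 55.3% changed in either direction. The largest falls were those of gd, snk and dl, the 3 members with the lowest level at 1 h, and the smallest called fall was that of cact, the member with the highest level at 1 h. Between 0 and 1 h edgeR called none of the 9 members, of which 1 had an unadjusted p under 0.05, DESeq2 called none as well, and 12.2% of all genes changed. That share depended on the samples used, since 1352 genes were called with all samples, 94 with the 8 samples alone, 433 without replicate 1 and 186 without replicate 3.

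**Figure D1:**
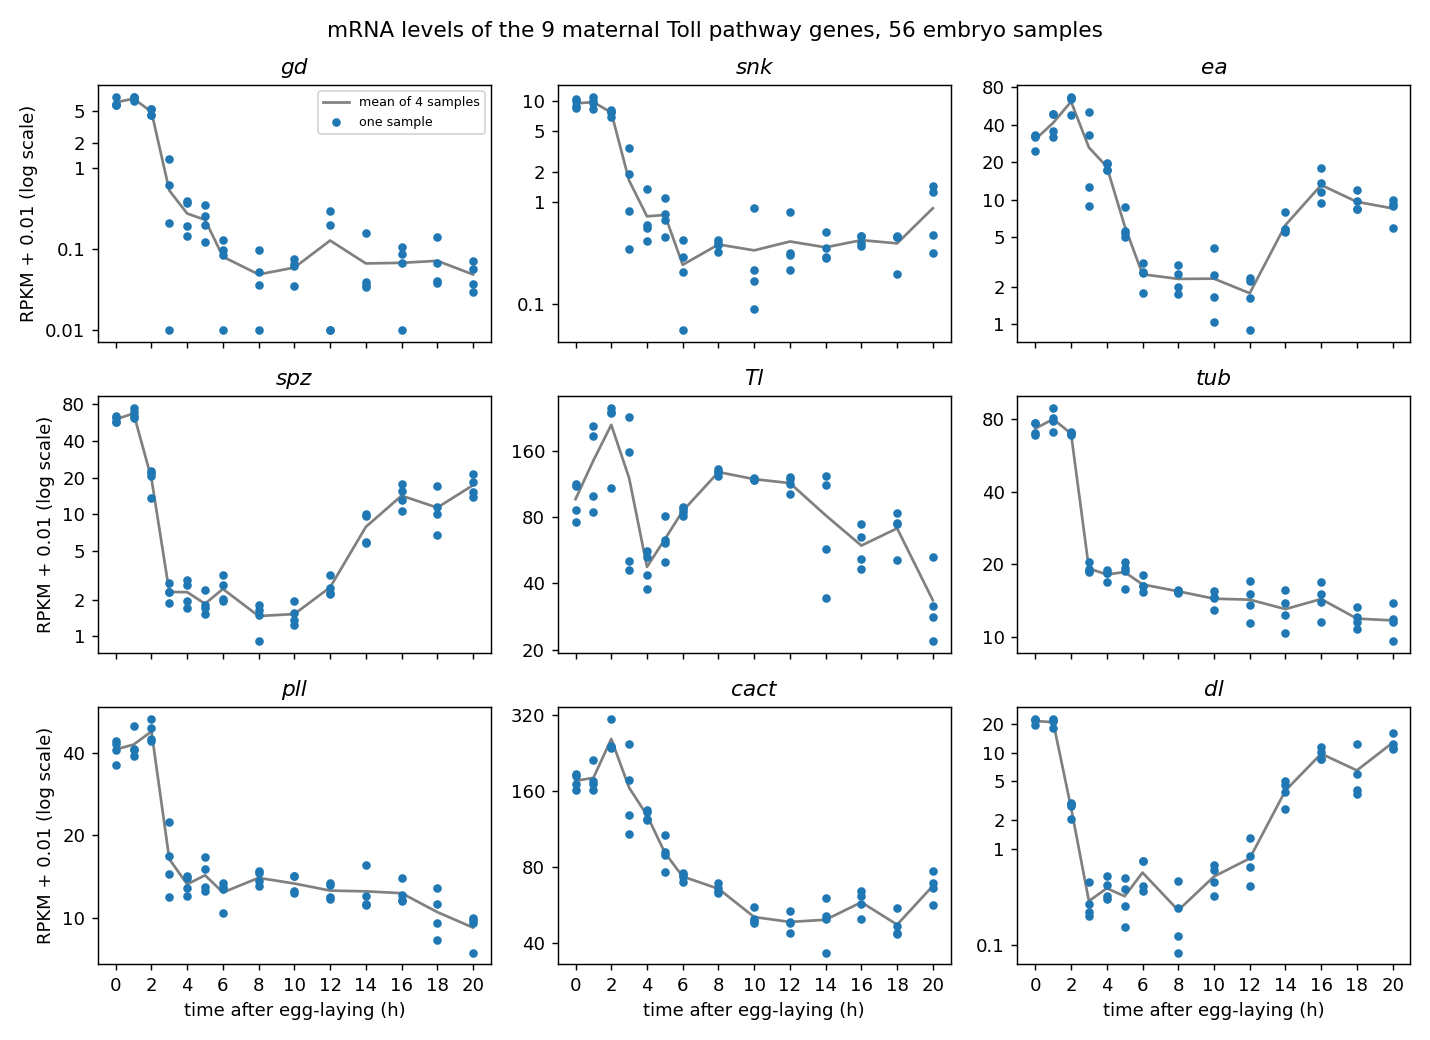
mRNA level of each member (RPKM plus 0.01, log axis with its own range per gene) against time after egg-laying in h. Points are single samples and lines join the means of 4 samples; dl ran from 20.7 RPKM at 1 h through 0.219 RPKM at 8 h to 12.6 RPKM at 20 h, whereas tub stayed between 11.7 and 19.2 RPKM from 3 h onwards.

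The hours at which the members fell differed. At 2 h against 1 h, 2 of the 9 members fell, spz and dl, when 13.2% of all genes fell and 37.7% changed. Without replicate 2, Tl (1.06) and ea (1.01) were called higher there as well. At 3 h against 2 h, 7 members fell, all but Tl and cact, when 20.1% of all genes fell and 43.3% changed, and the members' median log2 fold change was -2.01 beside -0.11 over all genes. Between 3 and 6 h cact, ea, snk and gd fell, 4 of the 9, when 10.6% of all genes fell and 24.4% changed, with a median over all genes of 0.16. The scale of the comparison of 2 h with 1 h depended on the normalization. Its median over all genes was 0.75 in the fit of all samples, 0.36 with library totals in place of TMM and 0.06 with the 8 samples of the 2 time points alone, and the share of calls that were higher was 65.0%, 47.4% and 30.6% in the same order. The changes of spz, dl, ea and cact at 2 h are therefore also given relative to that median.

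**Figure D2:**
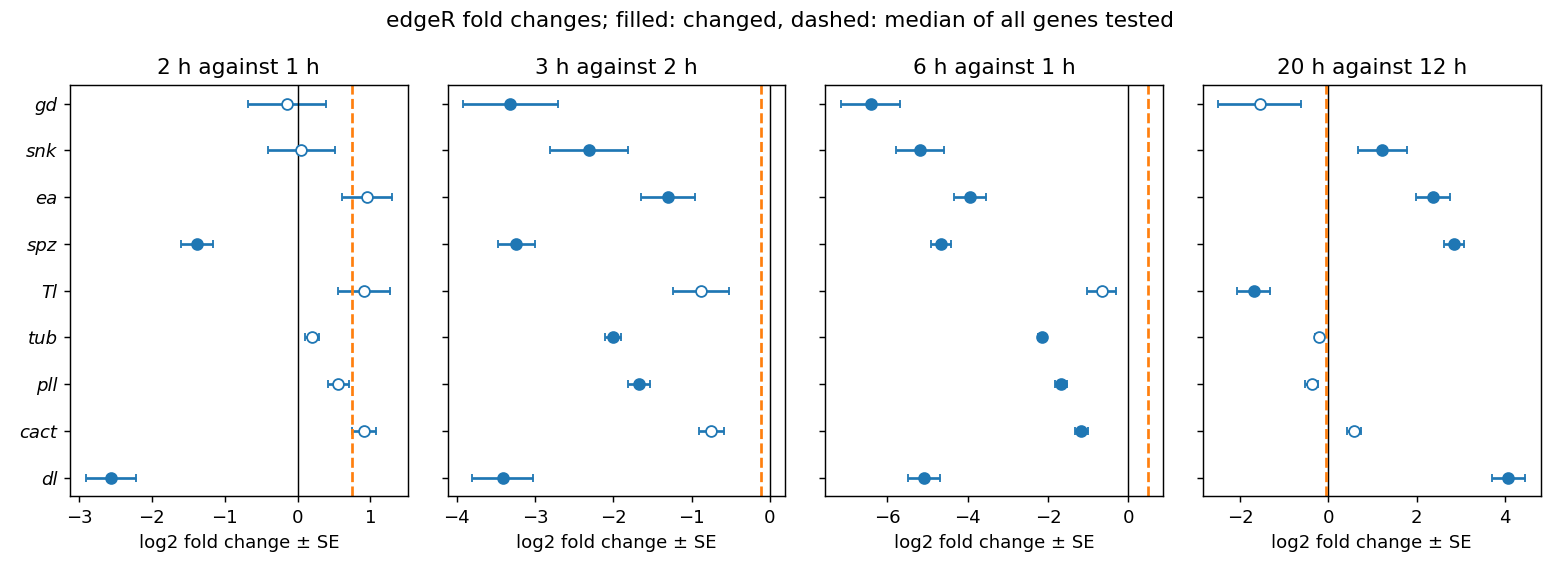
edgeR log2 fold changes (later over earlier time point) with SE for the 9 members in 4 comparisons, with filled points for called changes and a dashed line at the median of all genes tested. At 2 h only spz and dl were called, at 3 h every member but Tl and cact, and at 20 h against 12 h dl had the largest rise with a log2 fold change of 4.08.

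The extracellular proteases act in the order gd, snk, ea, each cutting the next. The gene gd, which encodes the protease that starts this chain, was the scarcest member at 1 h with 6.93, 7.35, 7.33 and 6.64 RPKM. At 2 h it had 5.26, 5.28, 4.46 and 4.46 RPKM, below every 1 h sample. That change was not called, with a log2 fold change between -0.18 and -0.13 when each replicate was left out, beside a median of 0.75 over all genes. At 3 h gd had 0.604, 1.26, 0.199 and 0 RPKM, and at 6 h 0.0757, 0, 0.0863 and 0.120 RPKM. The 2 h and 3 h samples did not overlap, and at 3 h gd had fallen with a log2 fold change of -3.31 ± 0.602 (SE, edgeR adjusted p = 5.63e-06). Its log2 fold change at 6 h against 1 h was -6.41 ± 0.743 (adjusted p = 1.62e-10), an 85.3-fold fall, in which the 6 h samples held 11 counts in all. From 8 to 20 h the 28 samples held 62 counts of gd, between 0 and 10 per sample, and 4 of them held none. A count of 0 allows up to 3 counts, which is 0.0589 to 0.0989 RPKM of gd depending on the sample, and every mean of gd from 8 h onwards was at or below 0.117 RPKM. Such limits cover counting error only.

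The next protease gene is snk. It had 11.0, 9.98, 8.29 and 9.50 RPKM at 1 h and 7.83, 8.16, 6.95 and 7.68 RPKM at 2 h. It had 1.90, 3.46, 0.822 and 0.342 RPKM at 3 h, below every 2 h sample. The fall at 3 h had a log2 fold change of -2.31 ± 0.493 (edgeR adjusted p = 7.28e-05), and the net fall at 6 h against 1 h was 36.3-fold (log2 fold change -5.18 ± 0.590). From 6 to 18 h its mean was between 0.234 and 0.417 RPKM, with 1 to 20 counts per sample. Replicate 4 at 10 h stood apart with 0.866 RPKM against 0.0796 to 0.207 RPKM in the others, and in the same library the summed level of 11 follicle cell and eggshell genes was 164 RPKM against 1.13 to 5.65 RPKM, the part of which in the snk value was not tested.

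The gene ea, whose protease cuts Spätzle, still held 44.4% of its 1 h mean at 4 h, when snk was at 7.45% and gd at 3.73%. It had 49.2, 49.0, 32.1 and 35.4 RPKM at 1 h and 67.3, 65.0, 47.7 and 65.7 RPKM at 2 h. Its 2 h change was 0.96 on the log2 scale, under the limit of 1, and 0.20 above the median of all genes. At 3 h it had 33.1, 50.4, 12.6 and 8.83 RPKM, and the level of replicate 2 lay above the lowest 2 h sample. The 3 h fall passed the test (log2 fold change -1.30 ± 0.347, adjusted p = 0.00113) but was not called in the fit of the 8 samples alone (-1.09, adjusted p = 0.103), without replicate 4 (-0.95) or without 3 h replicates 3 and 4 (-0.49). All 4 samples of 4 h held 17.3 to 19.5 RPKM. At 6 h ea had 2.58, 1.76, 3.07 and 2.60 RPKM, below every 3 h sample, and its log2 fold change against 3 h was -3.59 ± 0.389 (adjusted p = 2.98e-10). The median ratio of ea to snk within a sample was 4.18 at 1 h, then 16.4 at 3 h and 32.3 at 4 h.

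The ligand gene spz had 75.1, 68.9, 63.7 and 61.5 RPKM at 1 h, more than each protease gene in every sample of that time. It had 22.5, 22.0, 13.6 and 20.7 RPKM at 2 h and 2.31, 2.71, 2.31 and 1.87 RPKM at 3 h. The samples of these 3 hours did not overlap. The first fall, at 2 h against 1 h, was 2.61-fold in the edgeR fit (log2 fold change -1.38 ± 0.217, adjusted p = 4.23e-07), which was 2.13 below the median of all genes. The second, at 3 h against 2 h, was 9.43-fold (-3.24 ± 0.239, adjusted p = 4.18e-16). Between 3 and 12 h the mean of spz stayed between 1.45 and 2.51 RPKM.

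The transcription factor gene dl fell by more than any other member in the comparison of 2 h with 1 h. It had 21.1, 17.8, 22.4 and 21.4 RPKM at 1 h, 2.89, 2.76, 2.03 and 2.96 RPKM at 2 h and 0.259, 0.442, 0.210 and 0.191 RPKM at 3 h. No sample of one of these hours reached the range of another. In the edgeR fit dl was 5.90-fold lower at 2 h than at 1 h (log2 fold change -2.56 ± 0.349, adjusted p = 1.92e-08, 3.31 below the median of all genes). It was 10.6-fold lower at 3 h than at 2 h (-3.41 ± 0.390, adjusted p = 2.02e-10). In RPKM, without the TMM factors, the 2 h mean was 12.9% of the 1 h mean. By 3 h the mean of dl was 1.33% of its 1 h mean, the lowest share among the members. From 3 to 8 h the mean was between 0.219 and 0.554 RPKM, with 10 to 87 counts per sample. At those hours the late muscle sum was between 73.2 and 357 RPKM, at most 3.97% of its 20 h mean, and its part in the remaining dl counts was not tested.

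**Figure D3:**
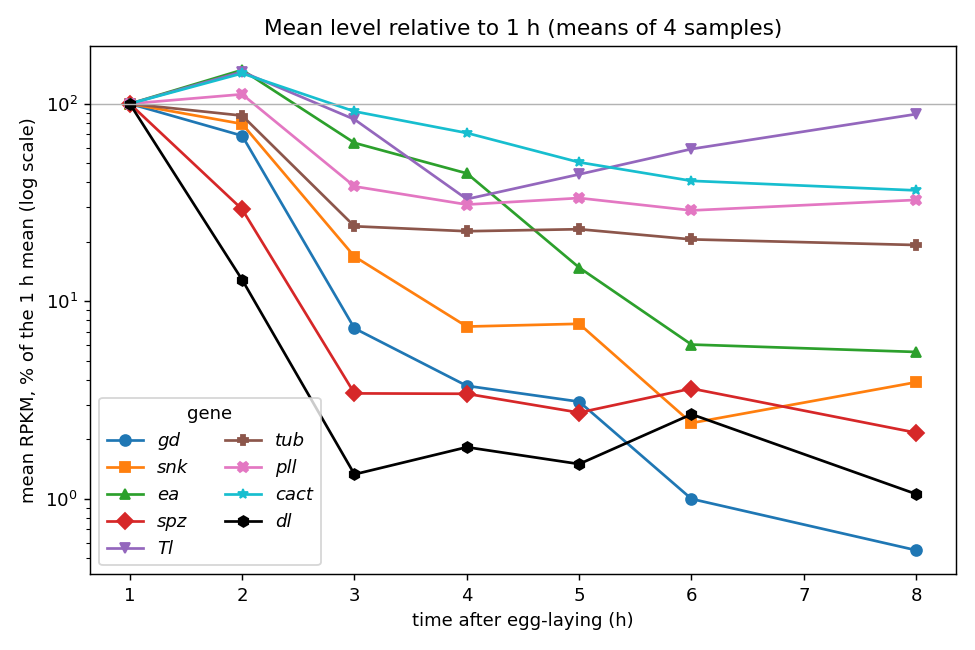
Mean RPKM of each member from 1 to 8 h as a percentage of its own 1 h mean (log axis), 4 samples per point. At 2 h dl was at 12.9% and spz at 29.2%, when ea, Tl and cact were between 143% and 148%.

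The adaptor gene tub and the kinase gene pll both fell at 3 h. The gene tub had 70.7, 81.0, 78.8 and 89.1 RPKM at 1 h and 69.5, 70.4, 70.1 and 68.3 RPKM at 2 h. At 3 h it had 19.1, 20.3, 18.7 and 18.5 RPKM, a fall of 4.02-fold with the smallest error of any member (log2 fold change -2.01 ± 0.101, adjusted p = 2.75e-21). The gene pll had 16.7, 22.3, 14.4 and 11.9 RPKM at 3 h, against 44.9, 49.2, 53.2 and 44.1 RPKM at 2 h, a 3.18-fold fall (-1.67 ± 0.144, adjusted p = 6.11e-14). In neither gene did the 2 h and 3 h samples overlap. After 3 h both kept a level instead of vanishing, and the means were between 11.7 and 19.2 RPKM for tub and between 9.19 and 16.4 RPKM for pll up to 20 h. At 6 h tub was at 20.6% and pll at 28.8% of the 1 h mean, whereas dl was at 2.68%, spz at 3.62% and gd at 1.00%. The ratio of pll to tub within a sample was 0.537 at the median of 1 h and between 0.672 and 0.988 at every later time.

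The inhibitor gene cact was the most abundant member at 1 h, with 162, 176, 172 and 213 RPKM. At 2 h it had 237, 240, 310 and 243 RPKM, above every 1 h sample. The change of 0.91 on the log2 scale (adjusted p = 3.62e-06) was under the limit of 1 and was 0.16 above the median of all genes. At 3 h it had 177, 247, 128 and 108 RPKM, and at 6 h 74.7, 70.2, 76.2 and 73.0 RPKM, below every 3 h sample. The fall at 6 h against 3 h was 2.52-fold (log2 fold change -1.33 ± 0.162, adjusted p = 4.66e-09), but it was under the limit of 1 without replicate 2 (-0.999) and without 3 h replicates 1 and 2 (-0.82). The fall at 6 h against 1 h was 2.25-fold (-1.17 ± 0.161, adjusted p = 1.28e-08). After 10 h the mean stayed between 47.4 and 67.5 RPKM. The gene cact was thus never below 36.8 RPKM in any of the 56 samples.

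The inhibitor gene and the gene of its target were also set against each other. Within a sample the median ratio of cact to dl was 8.50 at 0 h and 8.78 at 1 h. It reached 84.6 at 2 h and 590 at 3 h, where the 4 samples lay between 559 and 686. At 8 h it was 432, with samples between 153 and 862. Later medians were 67.3 (12 h), 12.6 (14 h) and 5.68 (20 h). The lowest 2 h ratio (82.1) was above the highest 1 h ratio (9.97), and the highest 20 h ratio (6.28) was below the lowest 1 h ratio (7.65). The ratio of Tl to spz had a similar course, with medians of 2.06 (1 h), 47.6 (3 h), 83.7 (8 h) and 2.04 (20 h). These ratios are of mRNA and were not tested.

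**Figure D4:**
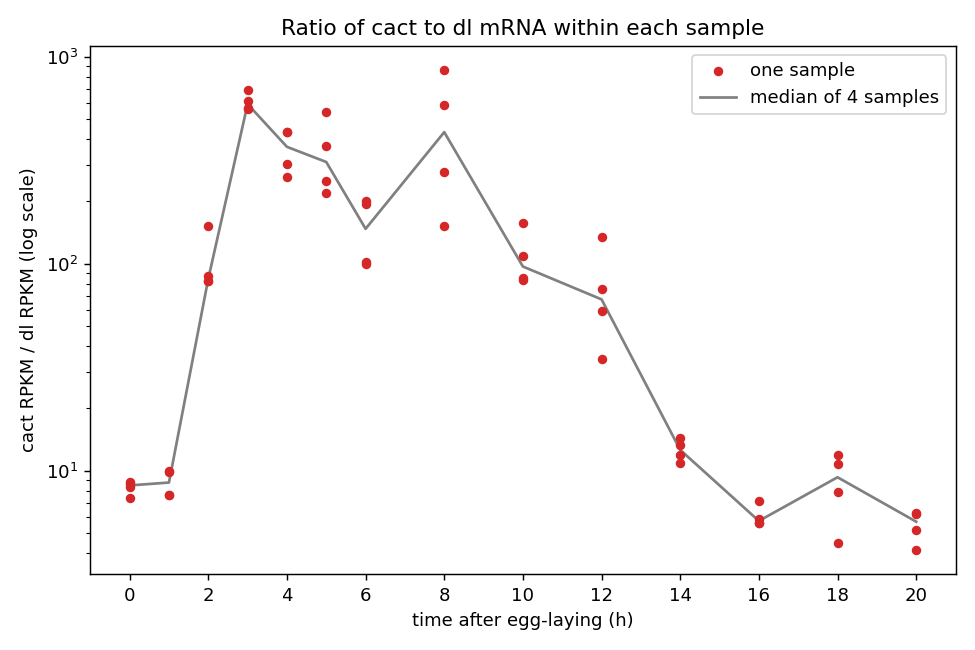
Ratio of cact RPKM to dl RPKM (log axis) within each sample against time after egg-laying in h, with a line through the medians of 4 samples. The ratio was 8.78 at 1 h, 590 at 3 h and 5.68 at 20 h.

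The receptor gene Tl had a course of its own. At 1 h its level was 187 and 207 RPKM in replicates 1 and 2 and 84.1 and 100 RPKM in replicates 3 and 4, and at 2 h it was 251, 241, 109 and 238 RPKM. The range of each hour overlapped that of the other, and the change of 0.92 on the log2 scale was under the limit of 1. At 3 h it was 158 and 228 RPKM in replicates 1 and 2 and 46.3 and 50.4 RPKM in replicates 3 and 4. The change at 3 h against 2 h was -0.88 ± 0.357 (adjusted p = 0.0297), under the limit of 1, and it was -2.18 without 3 h replicates 1 and 2. At 4 h the 4 samples were close together, between 37.6 and 56.4 RPKM.

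A later increase of Tl followed. It had 80.9 to 89.3 RPKM at 6 h and 128, 129, 124 and 132 RPKM at 8 h, above every sample of 4 h. The comparison of 8 h with 4 h was added after the levels had been seen. There Tl was the only member called higher, by 2.45-fold (log2 fold change 1.29 ± 0.361, adjusted p = 0.00243), and cact, ea and gd fell, when 11.7% of all genes rose, 13.4% fell and 25.2% changed, with a median over all genes of -0.15. At 6 h Tl had passed cact as the most abundant member (85.3 ± 3.66 RPKM for Tl and 73.6 ± 2.58 RPKM for cact), with no overlap between the samples of the 2 genes. The mean of Tl stayed above that of cact up to 18 h, but the samples of the 2 genes overlapped at 14, 16 and 18 h. At 16 h the means were 59.4 RPKM for Tl and 58.2 RPKM for cact. The 4 samples of Tl differed least at 10 h, between 118 and 120 RPKM, and at 14 h they ran from 34.2 to 123 RPKM. At 12 h against 6 h edgeR called none of the 9 members, with 2 members (cact and tub) under 0.05 both before and after adjustment but under the limit of 1 in size, DESeq2 called none, and 24.8% of all genes changed, with a median of -0.15.

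In the late embryo the members parted again. At 20 h against 12 h, 4 of the 9 members rose (dl, spz, ea and snk) and 1 fell (Tl), when 30.7% of all genes rose, 22% fell and 52.7% changed. The gene dl had 16.0, 10.9, 12.4 and 11.3 RPKM at 20 h, against 1.27, 0.398, 0.638 and 0.822 RPKM at 12 h. This was a 16.9-fold rise (log2 fold change 4.08 ± 0.380, adjusted p = 8.38e-13), to a mean at 20 h that was 61.1% of the 1 h mean. The gene spz had 21.6, 18.5, 15.3 and 14.0 RPKM at 20 h, against 3.14, 2.19, 2.25 and 2.46 RPKM at 12 h, a 7.19-fold rise (2.85 ± 0.236, adjusted p = 2.81e-14). Both had already moved at 14 h, where dl had 2.56 to 5.06 RPKM and spz 5.83 to 10.1 RPKM, above every 12 h sample. The increase was not steady, as the mean of dl was 9.70 RPKM at 16 h, 6.51 RPKM at 18 h and 12.6 RPKM at 20 h, and that of spz was 14.2, 11.4 and 17.4 RPKM at the same hours. The late muscle sum had the same dip, with medians of 205 RPKM at 8 h, 881 RPKM at 12 h, 3947 RPKM at 16 h, 2390 RPKM at 18 h and 9292 RPKM at 20 h. Among the 18 h samples the library with the highest sum (6090 RPKM in replicate 4, against 1542 to 2614 RPKM in the others) also had the highest dl (12.3 RPKM, against 3.68 to 5.95 RPKM). The sum of hemocyte marker genes was also highest in that library (70.7 RPKM, against 50.3 to 55.0 RPKM). The median of that sum was 68.0 RPKM at 12 h and 51.5 RPKM at 20 h, but its genes did not move together. The means of crq (31.2 RPKM at 12 h and 17.2 RPKM at 20 h) and srp (19.5 and 8.51 RPKM) were lower at 20 h. Those of Pxn (16.9 and 25.7 RPKM), NimC1 (0.0784 and 2.46 RPKM) and Hml (0.0376 and 0.195 RPKM) were higher. Embryo age and the amounts of muscle and of other cell types cannot be told apart here.

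The protease gene ea had 5.94, 8.86, 9.16 and 10.0 RPKM at 20 h, against 2.19, 2.35, 1.62 and 0.878 RPKM at 12 h (5.15-fold, log2 fold change 2.37 ± 0.385, adjusted p = 4.92e-07). Its late maximum was at 16 h, with 17.9, 11.5, 13.6 and 9.39 RPKM. The rise of snk was small and uncertain, with 0.469, 0.309, 1.44 and 1.26 RPKM at 20 h, against 0.311, 0.802, 0.294 and 0.208 RPKM at 12 h. The samples overlapped, and the log2 fold change of 1.22 ± 0.552 (adjusted p = 0.0423) was no longer called with library totals (adjusted p = 0.0624), with the 8 samples alone (0.102) or without replicate 1 (0.0694), 3 (0.283) or 4 (0.240). The gene gd had 1 to 2 counts per sample at 20 h and is given no fold change there. The receptor gene Tl had 21.8, 52.5, 31.7 and 28.2 RPKM at 20 h, against 102, 122, 119 and 114 RPKM at 12 h, a 3.24-fold fall (-1.69 ± 0.365, adjusted p = 5.55e-05) with no overlap. The changes of cact (0.57), tub (-0.21) and pll (-0.38) were under the limit of 1.

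The order of levels reflected these courses. At 1 h it was cact, Tl, tub, spz, pll, ea, dl, snk and gd by mean RPKM, in which the samples of cact and Tl, Tl and tub, tub and spz, and pll and ea overlapped and those of the other neighbours did not. At 6 h it was Tl, cact, tub, pll, ea, spz, dl, snk and gd, with overlaps of ea and spz, dl and snk, and snk and gd. At 20 h it was cact, Tl, spz, dl, tub, pll, ea, snk and gd, where spz to ea formed a run of overlapping neighbours between 8.49 and 17.4 RPKM on average. Among all genes tested, cact stood at percentile 97.1 at 1 h, 91.5 at 6 h and 90.5 at 20 h. The percentile of dl was 59.9 at 1 h, 21.0 at 6 h and 56.1 at 20 h.

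At 3 h the 4 replicates fell into pairs. All 9 members were higher in both replicates 1 and 2 than in both replicates 3 and 4, by 9.36 times for gd, 4.60 for snk, 3.98 for Tl and 3.89 for ea in the ratio of the pair means, but by 1.06 for tub and 1.20 for spz. The share of all genes with such a split was not determined, so this count does not set the members apart from other genes. The early zygotic genes differed as well. The dorsal ectoderm gene zen had 93.9 and 150 RPKM in replicates 1 and 2 and 10.7 and 6.73 RPKM in replicates 3 and 4, whereas the FGF gene ths had 9.74 and 3.00 RPKM in replicates 1 and 2 and 22.5 and 21.9 RPKM in replicates 3 and 4. Of 14 zygotic Dorsal target genes, 4 were above in both and 5 below in both, and the mesoderm genes twi and sna differed little. Without replicates 1 and 2, all 9 members fell at 3 h against 2 h, and without replicates 3 and 4, 6 did. For 6 h against 3 h, 4 members were called with all samples, 5 without replicates 3 and 4 and 2 without replicates 1 and 2, where ea (with cact, snk and gd no longer called) still fell and dl was called higher (1.33, adjusted p = 0.0371). The part of embryo age in this split was not tested.

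**Figure D5:**
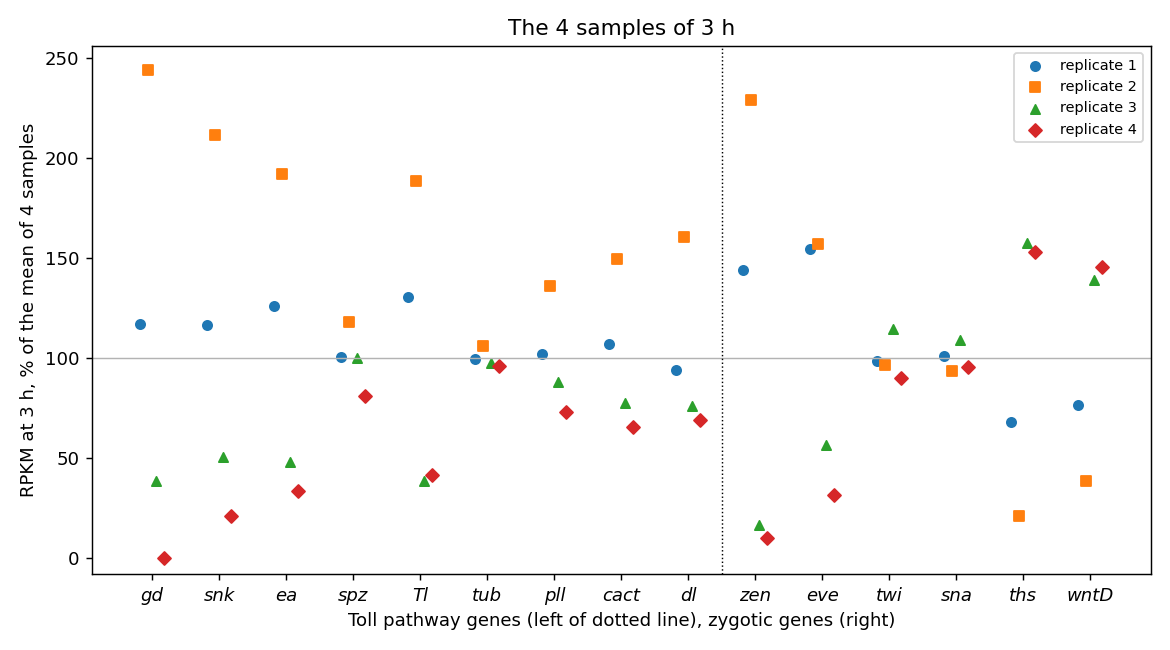
Level of each member and of 6 zygotic genes in the 4 samples of 3 h, as a percentage of the mean of those 4 samples. Replicates 1 and 2 lay above replicates 3 and 4 in every member, most widely in gd (0.604 and 1.26 RPKM beside 0.199 and 0 RPKM), and below them in ths and wntD.

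The genes that act with the 9 members were followed by list. Of 9 other intracellular components, 4 fell and 1 rose at 6 h against 1 h (median log2 fold change -0.91), beside 19.1% of all genes that fell and 36.2% that rose, and 6 fell at 3 h against 2 h, beside 20.1% of all genes. Myd88, the adaptor that binds Toll, had 2.16 RPKM at 6 h and 20.9 RPKM at 1 h (log2 fold change -3.14), mop, an endosomal protein of the pathway, fell by 2.12, and Pli, a Pellino homolog, rose by 1.15. Dif, the NF-kB paralog of dl in the immune response, did not pass at 6 h against 1 h (0.62) but rose at 20 h to 15.5 ± 9.50 RPKM, against 0.207 RPKM at 12 h (log2 fold change 6.37 ± 0.71 SE, edgeR adjusted p = 1.1e-10). Its 20 h samples ran from 4.46 to 25.3 RPKM. Of 6 genes that act upstream in the egg chamber, 2 rose and 1 fell at 6 h against 1 h (median -0.18), shares near the 36.2% and 19.1% of all genes: wbl, a chaperone of the sulfotransferase, rose by 5.19, pip, the sulfotransferase, by 4.10, and the protease inhibitor gene Spn27A fell by 1.74.

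Most paralogs of receptor and ligand rose at 6 h against 1 h, at means of 0.00448 to 5.81 RPKM at 1 h. Of 5 Toll receptor paralogs tested, of 8 listed, 4 rose at 6 h against 1 h, where 36.2% of all genes rose, led by Toll-6 with 63.7 RPKM at 6 h and 0.439 RPKM at 1 h (log2 fold change 7.28) and by Toll-7 (5.98). Of 5 spz paralogs, 4 rose at 6 h against 1 h, led by spz3 (4.28) and spz6 (3.28), and all 5 rose at 20 h against 12 h, as did spz and 30.7% of all genes, led by spz5 (5.87) and spz4 (4.73). At 20 h spz6 ran from 1.51 to 118 RPKM and spz3 from 1.27 to 21.4 RPKM. Both ranges overlapped those of 12 h (3.92 to 13.0 RPKM for spz6 and 1.58 to 2.03 RPKM for spz3). The ranges of spz4, spz5 and NT1 did not overlap. The mean of spz6 had been 199 RPKM at 16 h, against 36.9 RPKM at 20 h. The level of spz6 was 6.14 ± 3.22 RPKM at 6 h (1.46 to 8.59 RPKM) and 1.49 RPKM at 8 h. At the same hours spz4 had 1.37 and 0.509 RPKM, whereas spz3 had 3.87 and 3.18 RPKM. The late muscle sum also had a higher median at 6 h (270 RPKM) than at 8 h (205 RPKM), and its part in these values was not tested. The receptor genes Toll-6 and Tollo fell at 20 h against 12 h (-2.11 and -1.76), as did Tl, whereas Toll-5 rose (2.87). The median log2 fold change at 6 h against 1 h was 5.62 over the receptor paralogs and 2.48 over the ligand paralogs, beside 0.48 over all genes. The receptor median was the value of Toll-9, which had only 0.276 RPKM at 6 h and 0.00448 RPKM at 1 h.

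The zygotic targets of Dorsal appeared while the mRNA of dl was lost. At 2 h against 1 h 13 of the 14 targets rose (median log2 fold change 3.97 beside 0.75 over all genes, of which 24.5% rose), the same hour in which dl fell 5.90-fold in the edgeR fit. At 3 h against 2 h 12 rose (median 1.99), beside 23.2% of all genes. By 6 h against 1 h 13 were higher, led by wntD, a feedback inhibitor of Dorsal, with 131 RPKM at 6 h and 0.399 RPKM at 1 h (8.44) and by the midline gene sim (6.56), and zen, which Dorsal represses ventrally, was lower (-3.97). Of 9 genes of immune recognition and its protease cascade tested, of 10 listed, 7 rose at 6 h against 1 h, led by the protease genes grass (5.23) and modSP (4.26), beside 36.2% of all genes, but 3 in the fit of the 8 samples alone. Their levels were low, with means at 6 h of at most 3.13 RPKM. At 8 h the means of modSP (1.27 RPKM), SPE (0.610 RPKM), nec (0.362 RPKM), PGRP-SD (0.147 RPKM) and psh (0.335 RPKM) were below those of 6 h. The 6 h means were 2.71, 1.43, 0.720, 0.577 and 0.403 RPKM in the same order. Those of Hayan (0.721 RPKM at 6 h and 1.48 RPKM at 8 h) and grass (0.529 and 0.548 RPKM) were not lower at 8 h. Of 5 antimicrobial target genes tested, of 8 listed, 4 rose at 6 h against 1 h, beside the same 36.2%, led by Dso2 (4.07) and Mtk, which had 0.228 RPKM at 6 h and no count at 1 h, and BomS2 rose at 20 h to 20.7 RPKM, against 1.30 RPKM at 12 h (4.07). At 6 and 8 h BomS2 had 1.00 and 0.208 RPKM, BomS1 0.929 and 0.847 RPKM and Mtk 0.228 and 0.173 RPKM, whereas Dso2 had 2.37 and 3.09 RPKM. The late muscle sum had a higher median at 6 h (270 RPKM) than at 8 h (205 RPKM). Its part in the immune and antimicrobial values was not tested. The lists were chosen with results of these data known, and the counts are given as a description.

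Genes with the most similar courses were found by Pearson correlation of log2(mean RPKM + 0.1) over the 14 time points, among 10861 genes. The closest to Tl were put, which encodes a TGF-beta type II receptor (r = 0.979), heix (0.941) and sstn (0.936), and all 3 genes named for each other member had r of at least 0.973. For spz they were Mctp, stai and Mitf (0.992 to 0.995), for cact f-cup, tej and CG2224 (0.987 to 0.989), and for dl Akr1B, Idh and CG10344 (0.992 to 0.993). For tub they were smg, which encodes a repressor of maternal mRNAs, CG4953 and bcd, the anterior determinant (0.990 to 0.991), and for pll CG7332, Parg and CG17163 (0.990 to 0.992). For ea they were CG7737, clt and CG42445 (0.973 to 0.987), for snk Cyp6v1, CG32512 and CG4404 (0.980 to 0.985), and for gd CG7730, rig and CG4404 (0.991 to 0.996), so that CG4404 was named for both. Among the members themselves, tub and pll (0.988), tub and gd (0.984), snk and gd (0.975) and spz and dl (0.950) were the closest, and Tl was far from spz (0.056) and dl (-0.14). All of these values share the same libraries and are a description of the time courses.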

How the data were processed

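RNA of 56 whole-embryo samples was sequenced on TruSeq stranded mRNA libraries with single reads of 51 cycles. The deposited files hold unnormalized read counts for each gene, made by the authors with STAR 2.4.0h on BDGP6 and HTSeq 0.6.1p1 in union mode on Ensembl release 79 gene models. Uncounted reads were 3.90% to 10.5% of a sample and stayed out of library sizes. Time points and replicate numbers were taken from the sample labels.

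RPKM was computed from the counts on genes and the union exon lengths of Ensembl release 115, which held 17252 of the 17558 gene IDs. Of 60 listed pathway genes 58 were matched, and 18w and Drs, like the markers wupA and nos, were not analysed here. Tests on the counts used edgeR 4.0.16 (R 4.3.3, filterByExpr, TMM, quasi-likelihood, 1 mean per time point), and Benjamini-Hochberg adjustment covered all genes tested. Alternatives were DESeq2 1.42.0, its size factors, library totals, no filter, the 8 samples compared alone, a replicate block and leaving out replicates. The code was tested on simulated counts.

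The members and lists were chosen with earlier results of these data known. Named genes are the 9 members, the 3 genes most alike each in time course, and from each list at most 2 genes per direction with the largest fold change at 6 h against 1 h or in the comparison described. The genes named for the 3 h replicates (zen, ths, twi, sna, eve and wntD) were chosen after their values were seen. Single marker genes, and other listed genes given to qualify a count or a sum, were also chosen after their values were seen. Nothing in the methods pairs replicates across time points, so the replicate number was not a block. Tables were handled with pandas 2.3.3 and figures drawn with matplotlib 3.10.9.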

Additional observations from a re-analysis of the deposited data

Results flagged for a closer look

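Of 126 groups of 4 samples (9 members at 14 time points), 11 had a sample far from the other 3 by Dixon's test at the 95% level, and chance flags about 1 in 20 such groups. Replicate 3 at 2 h stood apart in 3 members, with 109 RPKM of Tl (238 to 251 RPKM in the others), 310 RPKM of cact (237 to 243 RPKM) and 47.7 RPKM of ea (65.0 to 67.3 RPKM), and it also had the highest blastoderm sum of that hour (275 RPKM, against 156 to 197 RPKM), whose part was not tested.

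The gene ea had 24.7 RPKM in replicate 2 at 0 h (31.9 to 33.3 RPKM in the others), 8.66 RPKM in replicate 1 at 5 h (4.97 to 5.58 RPKM) and 7.89 RPKM in replicate 2 at 14 h (5.51 to 5.80 RPKM). The gene gd had 7.48 RPKM in replicate 4 at 0 h (5.94 to 6.03 RPKM), the one 0 h library with a low late muscle sum, and 0.147 RPKM in replicate 2 at 14 h (0.0246 to 0.0293 RPKM), where it had 6 counts. The gene snk had 0.866 RPKM in replicate 4 at 10 h (0.0796 to 0.207 RPKM), the library with the eggshell transcripts, and 0.190 RPKM in replicate 3 at 18 h (0.450 to 0.453 RPKM), which was 4 counts. The gene pll had 7.45 RPKM in replicate 4 at 20 h (9.54 to 9.97 RPKM).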

How the results depend on the processing

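The count of members called at 6 h against 1 h was 8 under every alternative tried, and the counts at 1 h against 0 h and at 12 h against 6 h were 0 throughout. At 2 h against 1 h the count was 2, and 4 without replicate 2, with a range of 2 to 4 when each replicate was left out. When each replicate was left out, the count at 3 h against 2 h (7) ranged from 6 to 9, that at 6 h against 3 h (4) from 3 to 5, and that at 20 h against 12 h (5) from 4 to 5. At 8 h against 4 h the count was 4, and it stayed 4 when each replicate was left out, with a range of 3 to 4 over the alternatives tried. At 6 h against 3 h the count was 2 with the 8 samples alone and 2 without 3 h replicates 1 and 2, an alternative chosen after seeing the data. Replicate numbers did not pair the samples (same-number deviations correlated at 0.00619 on average and others at -0.00204), and with the replicate block the counts were unchanged, with 8 at 6 h against 1 h.

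Values that changed sign were near 0 or carried no call. They were dl at 1 h against 0 h (-0.038 with library totals, and -0.013 to 0.093 when each replicate was left out), tub at 2 h against 1 h (-0.20 with library totals, -0.045 with no filter, -0.34 with the 8 samples alone) and snk there (-0.012 with DESeq2 and with its size factors, -0.34 with library totals, -0.19 with no filter, -0.48 with the 8 samples alone, -0.0066 to 0.12 when each replicate was left out). Between 3 and 6 h they were Tl (0.69 without 3 h replicates 1 and 2, adjusted p = 0.113 in edgeR) and spz (0.087 with library totals, 0.084 without 3 h replicates 1 and 2, -0.35 to 0.16 when each replicate was left out). Between 6 and 12 h they were spz (0.016 with DESeq2, 0.018 with its size factors, 0.038 with library totals, 0.013 with no filter), pll (0.022 with library totals), and, when each replicate was left out, spz (-0.27 to 0.075), snk (-0.041 to 1.24) and gd (-0.58 to 1.33). At 8 h against 4 h it was pll (0.078 with library totals, 0.030 with the 8 samples alone). The causes were not tested.

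Over all genes, 1352 were called at 1 h against 0 h, but 94 with the 8 samples alone, 163 without 0 h replicates 1, 2 and 3, and 433 and 186 without replicates 1 and 3, and 2703 were called at 6 h against 3 h but 1419 without 3 h replicates 1 and 2. At 12 h against 6 h the share of calls that were higher was 54.5%, and 65.5% with library totals. The gene gd from 6 h and snk from 4 h are limited by depth.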
